A study of Mus musculus with 14 samples.

Results

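The genes described here are the chemokines and chemokine receptors of mouse spleen and ovary, followed in pups that lack the RNA-binding protein ZFP36L2. They were taken by name: each gene of the authors' spleen or ovary comparison whose symbol is Ccl, Cxcl, Cx3cl, Xcl, Ccr, Cxcr, Cx3cr, Xcr or Ackr followed by a digit, with 2 receptors left out. This gave 46 of the 20139 genes in these comparisons, 27 chemokines and 19 receptors. Of them 43 stand in the spleen comparison and 31 in that of the ovary, with 28 in both. Among the chemokines, 11 were classed as homeostatic or lymphoid, 11 as inflammatory (CC chemokines together with *Xcl1*), 2 as neutrophil-attracting CXC chemokines and 2 as interferon-inducible CXC chemokines, and the pseudogene *Ccl19-ps1* was given no role. The receptors were 9 CC receptors, 6 CXC, CX3C and XC receptors and 4 atypical receptors.

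Poly(A) RNA was sequenced from 4 wild-type and 4 L2-fKO spleens and from 3 wild-type and 3 L2-fKO ovaries, 14 libraries from 13 mice, since L2-fKO spleen 3 and L2-fKO ovary 1 came from the same female. L2-fKO mice (*Zfp36l2*-/-; CMV-Cre, called L2-cKO in the labels) descend from *Zfp36l2* fl/fl and CMV-Cre parents. The CMV promoter drives Cre from the early embryo on, so the gene is lost in every cell type of the spleen and ovary and not in a single lineage. Wild-type littermates kept both intact copies of *Zfp36l2* and also carried the CMV-Cre transgene. All animals were pups in their first days of life, with individual ages not given in the labels. The wild-type spleens came from 2 females and 2 males, the L2-fKO spleens from 1 female and 3 males, and the labels name the spleen source as spleen organoid.

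Chemokines are small secreted proteins that guide migrating leukocytes through receptors coupled to inhibitory G proteins. Homeostatic chemokines such as CXCL12 and CXCL13 are made steadily by stromal cells and place B cells, T cells and progenitors within lymphoid tissue, whereas inflammatory chemokines such as CCL2 and CXCL1 are induced on demand and call in monocytes, eosinophils or neutrophils. Atypical receptors bind chemokines without G protein signalling and remove or store them. Transcripts of many inflammatory chemokines are short-lived and carry AU-rich elements (ARE), the kind of 3′UTR sequence that ZFP36 proteins recognize to destabilize an mRNA.

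Reads on genes numbered 39138010 to 45167464 per spleen library and 31052510 to 44270070 per ovary library. Normalized counts of *Zfp36l2* itself were 4362 to 7394 in wild-type and 278 to 405 in L2-fKO spleens, and 4745 to 4906 against 758 to 1011 in the ovaries, so every library was on the side of its label. B cell, T cell and erythroid markers were read in every spleen, and oocyte markers summed to between 109020 and 133110 in every ovary. Wild-type spleen 3 stood apart by a low sum of B cell markers (15032, against 30605 to 78546 in the other wild-type spleens), and L2-fKO spleen 4 by a high sum of monocyte and macrophage markers (64563, against 33518 to 34803 in the other L2-fKO spleens). L2-fKO spleen 4 also had the highest T cell (9979), B cell (42574), NK cell, dendritic cell, stromal (55427) and endothelial (35234) sums of its group. Its erythroid sum was the lowest (402700, against 613430 to 815490), and its neutrophil sum (45564) lay within the range of its group. Markers of pancreatic acinar cells summed to 1644 to 24693 in wild-type and 1256 to 2179 in L2-fKO spleens. In whole tissue, fewer cells of a type and less RNA per cell cannot be told apart.

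In the spleen, every chemokine taken by the naming rule that was called rose, and every such receptor that was called fell. *Pf4* and *Ppbp*, chemokines under other names, fell and are described further below. All 43 genes of the spleen comparison passed the filter on low counts (at least 10 in 4 libraries or more), *Cxcl1* and *Ccl12* through the L2-fKO libraries alone, and 6 were called higher and 4 lower in L2-fKO. A call here means an adjusted p below 0.05 by edgeR's quasi-likelihood test, adjusted over all genes tested, together with a change beyond 1 on the log2 scale. Across all 16911 genes tested, 2.9% were called higher and 3.11% lower. The 6 that rose were *Ccl12*, *Ccl24*, *Cxcl5*, *Cxcl1*, *Ccl2* and *Ccl11*, out of 24 chemokines tested, and the 4 that fell were *Ccr2*, *Ccr1*, *Ccr3* and *Cxcr4*, out of 19 receptors. With 10 counts required in all 8 libraries, *Ccl12*, *Ccl2* and *Cxcl1* were no longer tested and 3 chemokines were called higher. The median log2 fold change was 0.33 over the chemokines and -0.24 over the receptors, beside -0.020 over all genes tested. At an adjusted p below 0.05 with no limit on the fold, 1 gene was added, *Ccl6*, which was lower, so that 11 of 43 passed, beside 13.4% of all genes.

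**Figure D1:**
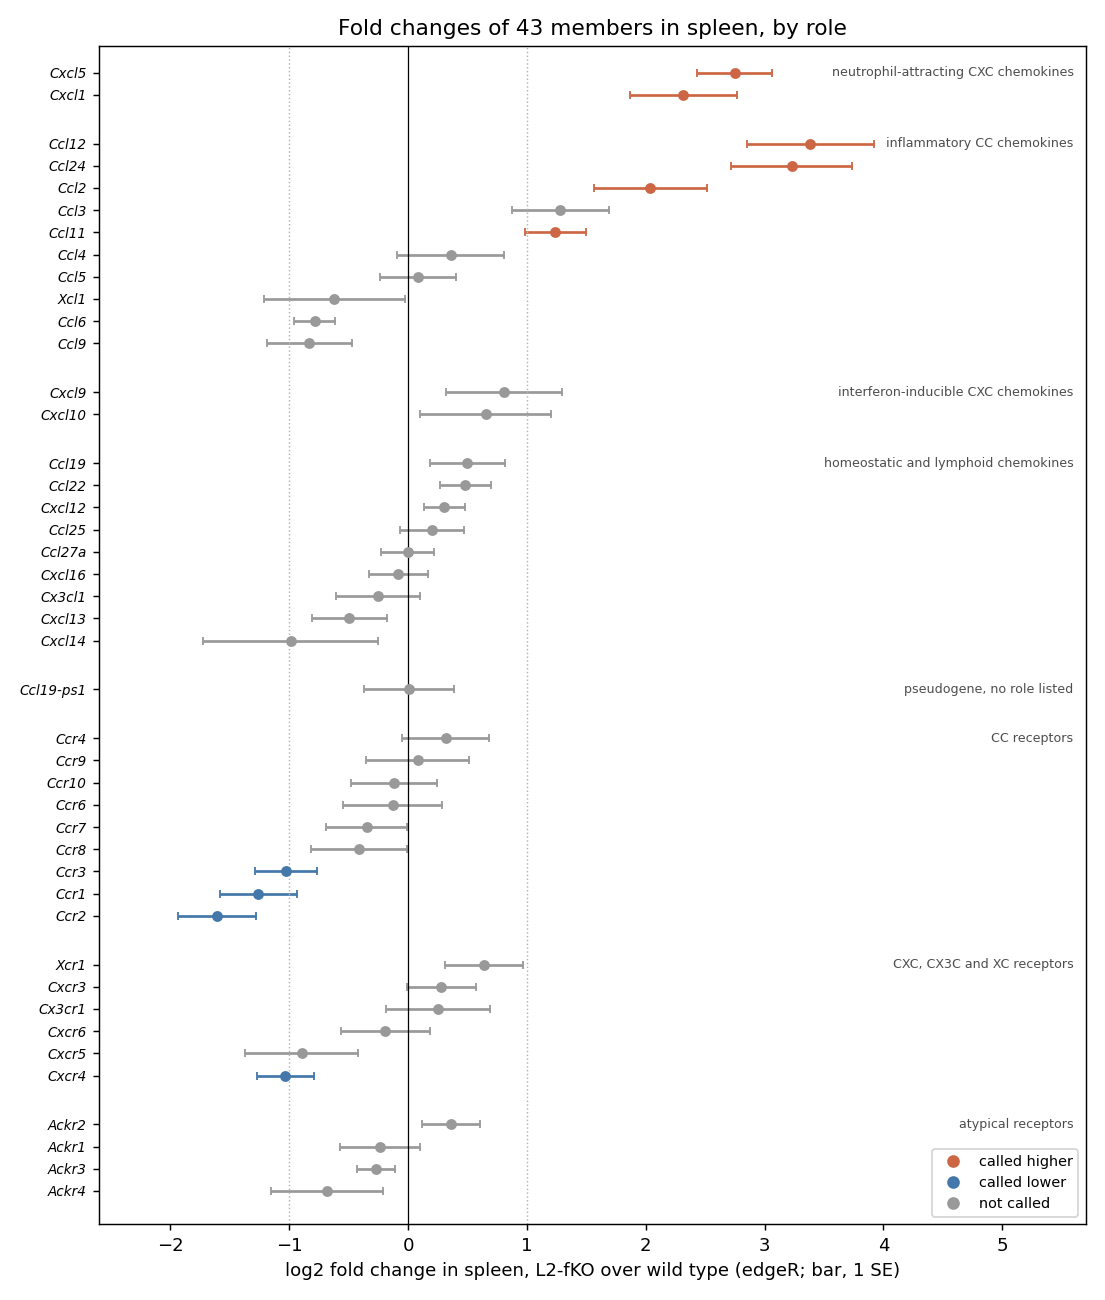
Log2 fold change of L2-fKO over wild-type spleen (x axis, edgeR) for the 43 genes tested, grouped by role; points are estimates from 4 against 4 libraries, bars are 1 SE and dotted lines mark the fold limit of 1. Both genes classed here as neutrophil-attracting chemokines and 5 inflammatory CC chemokines (Ccl3, grey, was not called) lie to the right of the limit, and 3 CC receptors and Cxcr4 to the left.

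CXCL5 and CXCL1 draw neutrophils and were both higher. *Cxcl5* (ENSMUSG00000029371) had normalized counts of 67.9, 141, 64.6 and 104 in the wild-type spleens and 505, 502, 562 and 969 in the L2-fKO spleens. Every L2-fKO library was at least 500 while no wild-type library reached 150, and the mean went from 94.5 ± 36.0 (SD, n = 4) to 634 ± 225 (SD, n = 4). *Cxcl5* rose by 2.75 ± 0.32 (SE) on the log2 scale (edgeR adjusted p = 0.000664), a 6.72-fold difference. *Cxcl1* (ENSMUSG00000029380) was far scarcer, with 3.77, 1.01, 5.96 and 5.05 in wild type and 21.9, 11.1, 20.6 and 26.4 in L2-fKO. Those values rest on 1 to 6 reads per library in wild type and on 10 to 31 in L2-fKO. Since it passed the filter only where it is high, its lack of overlap followed from the filter and its call is partly set by it. The same holds for *Ccl12*. The log2 fold change of *Cxcl1* was 2.31 ± 0.45 (edgeR adjusted p = 0.00981). *Cxcl5* and *Cxcl1* remained called when any single library was left out, at log2 2.47 and 2.15 without L2-fKO spleen 4.

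Of the 10 inflammatory chemokines tested, 4 rose. *Ccl12* (ENSMUSG00000035352), a mouse ligand of CCR2, had normalized counts of 5.66, 6.06, 3.98 and 3.03 in wild type and 30.3, 44.3, 23.9 and 101 in L2-fKO. The log2 fold change was 3.39 ± 0.53 (SE) with an edgeR adjusted p of 0.00347. As *Ccl12* passed the filter through L2-fKO alone, its lack of overlap followed from the filter and its call is partly set by it. *Ccl2* (ENSMUSG00000035385), the main monocyte attractant and also a ligand of CCR2, had 10.4, 20.2, 5.96 and 18.2 in wild type and 48.0, 33.2, 38.0 and 105 in L2-fKO, a rise of 2.04 ± 0.48 (edgeR adjusted p = 0.0213). With male libraries alone the call on *Ccl2* was lost (1.70, edgeR adjusted p = 0.078). Reads of both genes were few in wild type, 3 to 6 per library for *Ccl12* and 6 to 20 for *Ccl2*.

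*Ccl24* and *Ccl11* encode eotaxins, which attract eosinophils through CCR3. *Ccl24* (ENSMUSG00000004814) had normalized counts of 328, 124, 78.5 and 84.9 in wild type and 1113, 1193, 962 and 2514 in L2-fKO. It was the most abundant of the chemokines that rose, with means of 154 ± 118 and 1446 ± 719 (SD, n = 4 each) and a log2 fold change of 3.23 ± 0.51 (edgeR adjusted p = 0.00343), or 9.37-fold. Without wild-type spleen 1, the highest of its group, the log2 fold change of *Ccl24* was 3.91, and with male libraries alone it was 3.94. *Ccl11* (ENSMUSG00000020676) had 34.0, 49.5, 27.8 and 48.5 in wild type and 86.6, 84.2, 82.6 and 124 in L2-fKO. Here the rise was smaller, 1.24 ± 0.26 (edgeR adjusted p = 0.0126), but 3 of the L2-fKO spleens lay within 5 counts of each other and well above all wild-type spleens. In each of these 6 genes L2-fKO spleen 4 was the highest library, and without it the log2 fold changes were 2.82 for *Ccl24*, 2.78 for *Ccl12*, 1.54 for *Ccl2* and 1.08 for *Ccl11*, with all 4 still called.

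**Figure D2:**
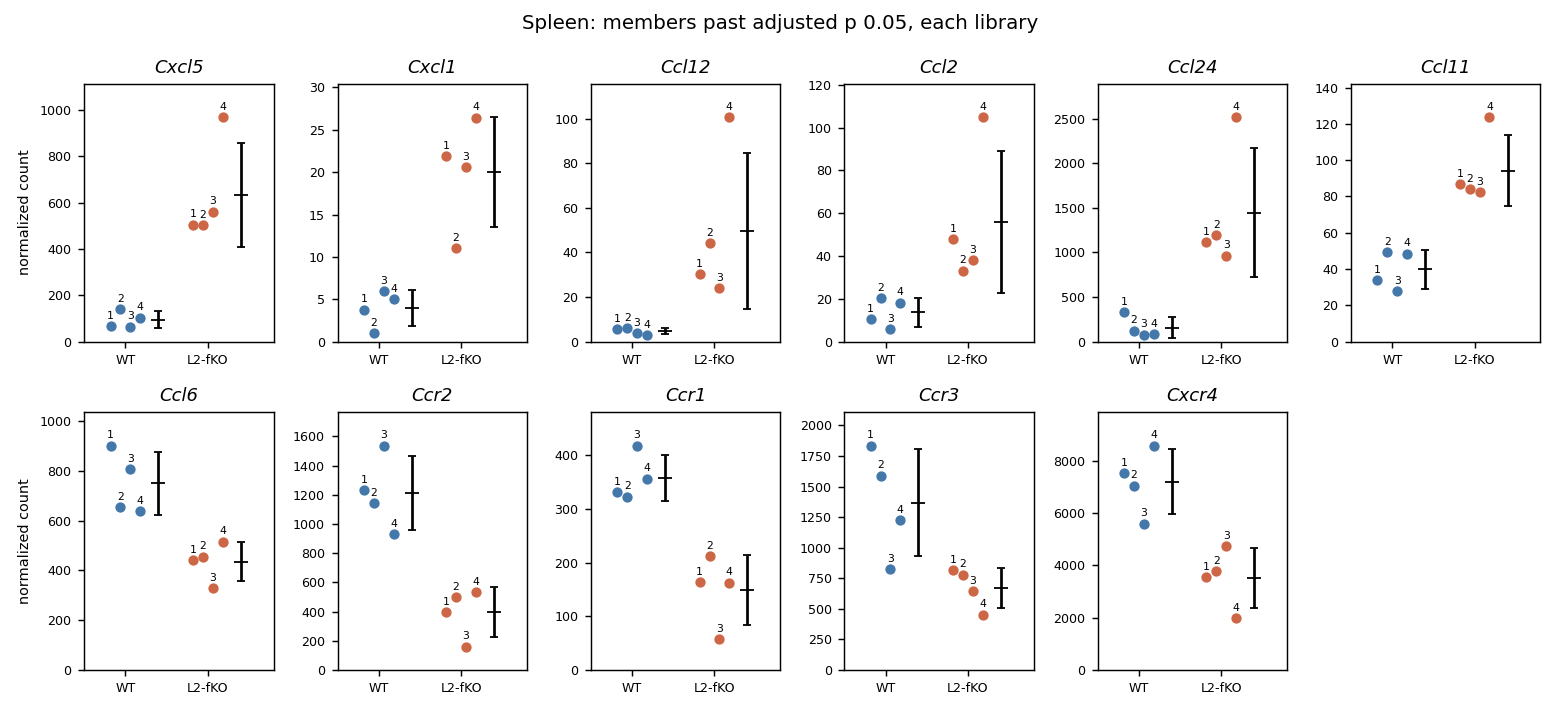
Normalized counts (y axis, from 0, with its own scale in each panel) of the 11 genes past an adjusted p of 0.05 in the spleen; each dot is a library numbered as in the text, and the black mark is the group mean with 1 SD. The 4 wild-type and 4 L2-fKO libraries do not overlap in any panel, which in Cxcl1 and Ccl12 followed from the filter. Library 4 is the highest L2-fKO value in the 6 chemokines that rose.

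For each of these genes an exact permutation test of the 8 libraries gave a two-sided p of 0.0286, the smallest that 4 against 4 can give. *Cxcl1* and *Ccl12* passed the filter through L2-fKO alone. Their lack of overlap followed from the filter, so this p and their place in the next count are no support for them. Without overlap between groups and with L2-fKO above were 7 of the 43 genes, beside 9.61% of all genes, and with L2-fKO below 5, beside 10.8%. The seventh was *Ccl22*, which attracts CCR4-bearing T cells, with 261, 264, 144 and 254 in wild type and 371, 289, 276 and 352 in L2-fKO. It differed by 0.48 ± 0.21 on the log2 scale and did not pass the test (edgeR adjusted p = 0.169).

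The other inflammatory chemokines were not called. *Ccl6* (ENSMUSG00000018927), a myeloid chemokine that binds CCR1, was lower under the fold limit, with 902, 654, 807 and 637 in wild type and 442, 455, 329 and 515 in L2-fKO (log2 -0.78 ± 0.17, edgeR adjusted p = 0.0168). Its neighbour *Ccl9*, another myeloid CCR1 ligand, had 441, 294, 455 and 268 against 213, 285, 76.0 and 245, groups that overlapped (-0.83 ± 0.36, edgeR adjusted p = 0.157). *Ccl3*, a ligand of CCR1, had 12.3, 9.09, 20.9 and 11.1 against 34.4, 27.7, 15.2 and 52.0 (1.28 ± 0.41, edgeR adjusted p = 0.0682). For *Ccl3* the side of the threshold depended on the settings: it was called by DESeq2 (adjusted p = 0.0361), with male libraries alone and without wild-type spleen 3 or L2-fKO spleen 3, where the log2 fold changes were 1.91, 1.58 and 1.51. *Ccl4*, *Ccl5* and *Xcl1* had log2 fold changes of 0.36, 0.08 and -0.62, none past the test, and *Ccl7* with 0 to 10 reads per library was not tested. The values of *Ccl22*, *Ccl3* and *Ccl9* were chosen for printing after they were seen.

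Neither interferon-inducible chemokine was called. *Cxcl10*, which calls in CXCR3-bearing T and NK cells, had normalized counts of 459, 452, 237 and 324 in wild type and 386, 304, 191 and 1426 in L2-fKO. A single library, L2-fKO spleen 4, carried the higher mean: the log2 fold change was 0.65 ± 0.55 with it and -0.32 without it, and the other L2-fKO spleens lay within or below the wild-type range. *Cxcl9*, a ligand of the same receptor, had 422, 239, 105 and 182 against 278, 224, 320 and 833, again with L2-fKO spleen 4 on top (0.81 ± 0.49, edgeR adjusted p = 0.31, and 0.21 without that library).

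Homeostatic and lymphoid chemokines showed no call among the 9 tested, with 4 fold changes above 0 (47.8% of all genes were), 5 below and a median of -0.0028 on the log2 scale (lowest edgeR adjusted p 0.169; at an unadjusted p below 0.05, 1, *Ccl22*, beside 29.0% of all genes; called by DESeq2, 0). *Cxcl12*, the stromal ligand of CXCR4 that keeps progenitors in place, had 19848, 23207, 20726 and 19919 in wild type and 24701, 26592, 18557 and 33616 in L2-fKO. L2-fKO spleen 3 was below all wild-type spleens and the other L2-fKO spleens above them (0.31 ± 0.17, edgeR adjusted p = 0.274). *Cxcl13*, which forms B cell follicles through CXCR5, had 3898, 3804, 1556 and 3015 against 2140.0, 2948, 1215 and 2403, groups that overlapped widely (-0.50 ± 0.32, edgeR adjusted p = 0.332). The other log2 fold changes of this role ran from -0.99 for *Cxcl14* to 0.50 for *Ccl19*. *Ccl19*, its pseudogene *Ccl19-ps1* and *Ccl27a* share 52.0%, 46.0% and 45% of their 50-base windows with other annotated transcripts, so their counts are uncertain, and *Ccl17* and *Ccl28* were too scarce to test.

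Among the CC receptors 3 of 9 fell. *Ccr2* (ENSMUSG00000049103), the receptor of CCL2 and CCL12 that brings monocytes out of the marrow, had normalized counts of 1234, 1146, 1538 and 928 in wild type and 398, 500, 159 and 535 in L2-fKO. The groups lay wide apart, with means of 1211 ± 253 and 398 ± 170 (SD, n = 4 each) and a log2 fold change of -1.61 ± 0.33 (edgeR adjusted p = 0.0119), and the call on *Ccr2* remained without any single library. *Ccr1* (ENSMUSG00000025804), a receptor of monocytes and neutrophils for CCL3, CCL6 and CCL9, had 332, 323, 418 and 357 against 164, 213, 57.6 and 163 (-1.26 ± 0.32, edgeR adjusted p = 0.0316). *Ccr3* (ENSMUSG00000035448), the eosinophil receptor for CCL11 and CCL24, had 1835, 1589, 824 and 1226 against 815, 779, 644 and 453 (-1.03 ± 0.26, edgeR adjusted p = 0.0297). In *Ccr3* the lowest wild-type library was within 10 counts of the highest L2-fKO library.

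Calls on *Ccr1* and *Ccr3* were less firm than that on *Ccr2*. When single libraries were left out, *Ccr1* stayed called in 3 of 8 fits, with log2 fold changes from -1.48 to -0.99 and edgeR adjusted p up to 0.0786, and *Ccr3* in 1 of 8, with -1.21 to -0.85 and adjusted p up to 0.0853. The call on *Ccr1* was lost when wild-type spleen 2, 3 or 4 was left out and also on leaving out L2-fKO spleen 1 or 3, and that on *Ccr3* was kept only without wild-type spleen 3. The other 6 CC receptors analysed had log2 fold changes from -0.41 (*Ccr8*) to 0.32 (*Ccr4*), with no call. *Ccr7*, which leads T cells and dendritic cells into T zones, had normalized counts of 562 to 1932 in wild type and 678 to 1335 in L2-fKO.

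Of the 6 receptors of CXC, CX3C and XC chemokines, *Cxcr4* fell. *Cxcr4* (ENSMUSG00000045382), the CXCL12 receptor that retains haematopoietic cells, had 7552, 7058, 5607 and 8597 in wild type and 3554, 3795, 4753 and 1996 in L2-fKO. The groups did not overlap, L2-fKO spleen 4 was the lowest, and the means were 7203 ± 1243 and 3525 ± 1143 (SD, n = 4 each). The log2 fold change of *Cxcr4* was -1.03 ± 0.24 (edgeR adjusted p = 0.0206) and -0.83 without L2-fKO spleen 4, which is under the fold limit; it stayed called in 3 of 8 fits with a library left out (adjusted p up to 0.0669), with wild-type spleens 2 and 4 and L2-fKO spleens 1 and 2 the others whose removal ended the call. *Cxcr5*, the B cell receptor for CXCL13, spread most: 2307, 1282, 286 and 1106 in wild type, which covered all L2-fKO values of 762, 661, 480.1 and 774 (-0.89 ± 0.47, edgeR adjusted p = 0.244). Without wild-type spleen 3, *Cxcr5* was called lower (-1.23, edgeR adjusted p = 0.0171). The sum of B cell markers ran in the same order of libraries within wild type, highest in spleen 1 and lowest in spleen 3, and its part in the result was not tested. *Cxcr3*, *Cxcr6*, *Cx3cr1* and *Xcr1* had log2 fold changes of -0.19 to 0.64 with no call.

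No atypical receptor was called (lowest edgeR adjusted p 0.291; none at an unadjusted p below 0.05, and none by DESeq2). *Ackr1*, which holds chemokines on red cells and venules, had 801, 877, 569 and 1118 in wild type and 938, 829, 804 and 286 in L2-fKO. It was low in L2-fKO spleen 4 alone (-0.24 ± 0.33, and 0.031 without that library), and 20.4% of its 50-base windows are shared with the overlapping gene *Cadm3*. *Ackr3*, a scavenger of CXCL12, had 1135, 1237, 793 and 1071 against 915, 943, 945 and 711 (-0.27 ± 0.16). *Ackr2* and *Ackr4* had log2 fold changes of 0.36 and -0.68.

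Several lists of cell type markers also differed between the spleen groups. Beside the lower receptors, 7 of 8 neutrophil markers fell, and their sum was 160990 to 261750 in wild type and 10561 to 59421 in L2-fKO, lowest in L2-fKO spleen 3, which also had the lowest *Ccr1*, *Ccr2*, *Ccl6* and *Ccl9*. Of the 10 monocyte and macrophage markers 1 was called lower, *Ly6c2*, which marks the monocytes that carry CCR2 (log2 -1.28, edgeR adjusted p = 0.0226). None was called higher. Under the fold limit, *Mertk* (0.79, edgeR adjusted p = 0.0143) and *Adgre1* (0.87, adjusted p = 0.0481) were higher, where 13.4% of all genes passed the adjusted p. Beside *Ccr3*, the eosinophil granule genes *Epx* and *Prg2* fell, with log2 fold changes of -2.66 and -3.85. The mast cell genes *Cpa3*, *Tpsb2*, *Tpsab1* and *Fcer1a* rose by 2.07 to 3.23. The 9 markers of mast cells, basophils and eosinophils together summed to 10618 to 24681 in wild type and 1761 to 8311 in L2-fKO. This sum mixes mast cell genes that rose with eosinophil genes that fell, so it does not track eosinophils alone. In L2-fKO the mean normalized counts were 2209 for *Tpsb2* and 1086 for *Cpa3*, beside 314 for *Epx* and 757 for *Prg2*. Wild-type spleen 3 had the highest sum (24681) and the lowest *Ccr3* of wild type (824). L2-fKO spleen 4 had the highest sum of L2-fKO (8311) and the lowest *Ccr3* (453). Beside the higher chemokines, the summed monocyte and macrophage markers were 23263 to 33888 in wild type and 33518 to 64563 in L2-fKO, with 8 of 10 fold changes above 0. Stromal markers summed to 32416 to 39946 in wild type and 42874 to 55427 in L2-fKO, with 3 of 8 called higher (*Pdgfrb*, *Pdgfra* and *Lum*), and endothelial markers to 17501 to 22365 and 22477 to 35234, with none of 7 called by edgeR. In both sums of stromal and endothelial markers the groups did not overlap. No marker of these lists was at 0 in every spleen. The part of these markers in the changes of chemokines and receptors was not tested.

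Levels per length put the changes on a common scale, as RPKM, reads divided by exon length and library size, with the length of all annotated exons merged. Only genes taken by the naming rule were ranked. *Pf4* and *Ppbp*, not ranked per length, had mean normalized counts of 7156 and 15360 in wild-type spleen. Those of *Cxcl13* and *Cxcl12* were 3068 and 20925. Among the ranked chemokines of wild-type spleen, *Cxcl13* (61.7 ± 21.8, SD) and *Cxcl12* (59.2 ± 4.45) led and did not differ beyond their spread. *Ccl19-ps1* (22.2 ± 9.38), *Ccl5* (12.0 ± 4.68) and *Ccl6* (9.66 ± 1.64) followed, and the last 2 overlapped within 1 SD. *Ccl24* stood at 2.75 ± 2.11 in wild type, beside *Ccl9* (2.77 ± 0.74) and *Ccl22* (2.30 ± 0.58), and at 25.8 ± 12.8 in L2-fKO, where only *Cxcl12* (73.2 ± 17.5) and *Cxcl13* (43.8 ± 14.6) had higher means among the chemokines. The other chemokines that rose stayed at low levels, from 0.25 ± 0.08 for *Cxcl1* to 7.88 ± 2.79 for *Cxcl5* in L2-fKO. *Cxcr4* led the receptors by far in wild type (92.2 ± 15.9, against 13.8 ± 3.73 for *Ackr1* and 13.5 ± 6.69 for *Ccr7*, which did not differ beyond their spread) and still did in L2-fKO (45.1 ± 14.6). *Ccr3* had 9.68 ± 3.12, *Ccr2* 4.14 ± 0.86 and *Ccr1* 2.92 ± 0.35 in wild type, and 4.76 ± 1.16, 1.36 ± 0.58 and 1.22 ± 0.53 in L2-fKO.

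Many chemokine genes lie in clusters. With neighbours at most 200 kb apart, 26 of the 46 genes form 8 clusters and 20 stand alone (GENCODE M21, GRCm38). Chemokines under other names were not placed, among them *Pf4* and *Ppbp*, which fell in the spleen (log2 -5.64 and -6.06). A cluster here therefore need not hold every chemokine gene of its stretch. Calls stood in 3 of the clusters, while *Ccl24* and *Cxcr4* lie in none, and grouping along the chromosomes was not tested. The cluster at chr11:82035571-82103400 holds *Ccl2*, *Ccl7*, *Ccl11* and *Ccl12*, all on the plus strand within 67.8 kb, and each of the 3 that were tested rose. The next cluster on that chromosome, chr11:83525778-83664683 with *Ccl5*, *Ccl9*, *Ccl6*, *Ccl3* and *Ccl4*, held none called, with log2 fold changes of -0.83 and -0.78 for *Ccl9* and *Ccl6* and of 1.28 for *Ccl3*. *Cxcl5* and *Cxcl1*, both higher, lie within chr5:90759360-90893115. *Cxcl9* and *Cxcl10*, in the cluster chr5:92321347-92348889, were not called. The receptor cluster chr9:123678439-124113557 holds *Ccr9*, *Cxcr6*, *Xcr1*, *Ccr1*, *Ccr3* and *Ccr2* in that order. *Ccr1*, *Ccr3* and *Ccr2* follow each other and were the 3 that fell, while the other 3 had log2 fold changes of -0.19 to 0.64.

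**Figure D3:**
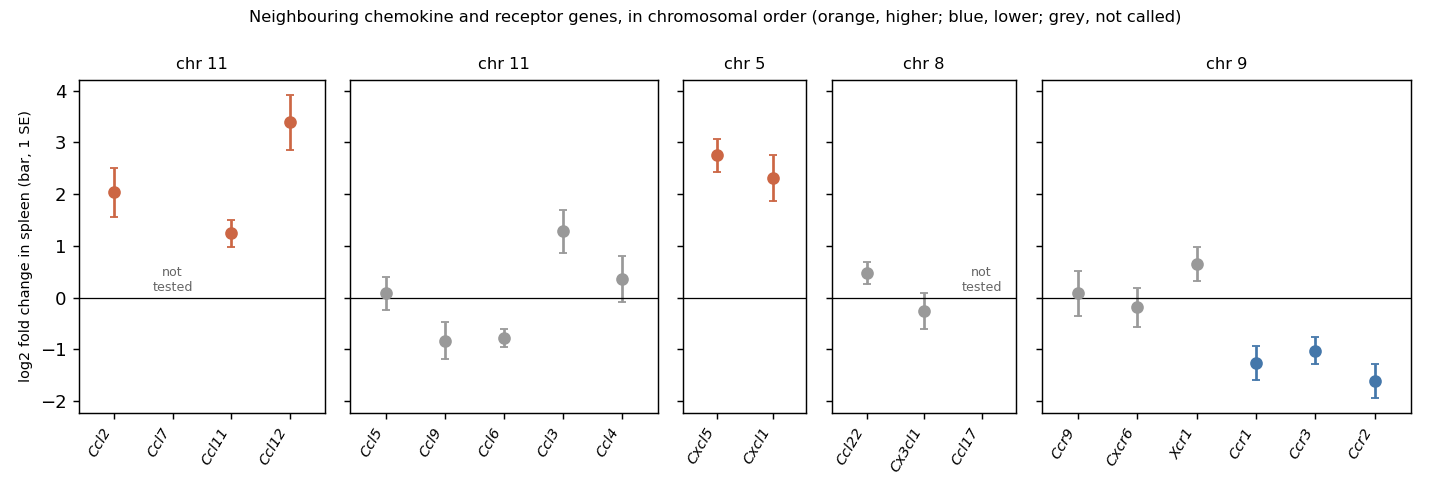
Log2 fold change in spleen (y axis, edgeR, bars 1 SE, 4 against 4 libraries) for neighbouring chemokine and receptor genes in 5 clusters, set side by side in chromosomal order without distance. The 3 tested genes of the first chromosome 11 cluster and both genes shown of the chromosome 5 cluster are higher. Ccr1, Ccr3 and Ccr2 of chromosome 9 are lower. Only genes taken by the naming rule are shown, so Pf4 and Ppbp, which fell, are absent.

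ZFP36L2 is described by the study as binding the ARE 7-mer UAUUUAU, so the motif was looked up in 3′UTRs, taking the longest isoform that GENCODE annotates. Of the 45 genes with a 3′UTR, 10 held the 7-mer (22.2%), beside 29.5% of 14227 spleen-tested genes for which a 3′UTR is annotated, and 29 held the 5-mer AUUUA (64.4%, beside 69.9%); each 7-mer contains a 5-mer. The 7-mer stood in 34.6% of the chemokines with a 3′UTR and in 5.26% of the receptors (26.9% and 0% with the shortest isoform). Over the 45 genes the median length was 835 bases beside 1331. With the shortest isoform in place of the longest the order of the lengths turned (644 beside 381), as did that of the 5-mer (55.6% beside 44.8%), and the shares with the 7-mer were alike (15.6% and 15.6%). Among the 6 that rose, 3 held the 7-mer (*Cxcl5* and, passing the filter through L2-fKO alone, *Cxcl1* and *Ccl12*). *Ccl2* and *Ccl11* held 1 and 5 copies of the 5-mer and no 7-mer, and *Ccl24*, with one of the largest rises, held neither. *Ccr2*, which fell, held 1 copy in its longest 3′UTR and none in its shortest. The sites of the called genes are printed with flanking bases as RNA, the 7-mer in capitals, since they are where binding could be tested (GENCODE M21, GRCm38, all on the plus strand). *Cxcl1* has 6 copies, the first 4 of them as 2 overlapping pairs within chr5:90892601-90892641 and the others at chr5:90892750-90892774 and chr5:90892910-90892934. The single sites lie at chr5:90761230-90761254 (*Cxcl5*), chr11:82103279-82103303 (*Ccl12*) and chr9:124107717-124107741 (*Ccr2*).
Cxcl1 site 1: ugaggguccUAUUUAUuuauguauu
Cxcl1 site 4: uuauguauuUAUUUAUuccacaaag
Cxcl1 site 5: uuaaacuaaUAUUUAUugggagacc
Cxcl1 site 6: aaugucaguUAUUUAUugaaagucg
Cxcl5: acuguauacUAUUUAUuaauuauua
Ccl12: gcagugugaUAUUUAUuaugauauc
Ccr2: cuuacaugaUAUUUAUaaaauuauu

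The same 7-mer stood in genes that were not called. *Ccl3*, *Ccl4*, *Ccl22*, *Cx3cl1*, *Cxcl12* and *Xcl1* held 1 each, with spleen log2 fold changes between -0.62 (*Xcl1*) and 1.28 (*Ccl3*). In *Cx3cl1* and *Cxcl12* the shortest 3′UTR lacks it. The sites of *Ccl3* (chr11:83648005-83648029, minus strand), *Ccl22* (chr8:94750821-94750845) and *Cxcl12* (chr6:117176369-117176393, both plus strand) are shown for comparison with those above.
Ccl3: auuugugacUAUUUAUucugaaaga
Ccl22: cuauaguuaUAUUUAUauaggaaag
Cxcl12: cagcugcugUAUUUAUgugcuucau

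Since inflammatory chemokines are textbook targets of NF-kappaB, the kappaB motif was also looked up, by name and on both strands, in the 250 bases before and 50 after each RefSeq transcript start (GRCm38.p6). Promoters were found for 34 of the 46 genes, and 8 of these held a match (23.5%), beside 9.6% of 27025 promoters. The 8 were *Cxcl1*, *Cxcl10*, *Ccl9*, *Ccl27a*, *Ccr1*, *Ccr3*, *Ccr6* and *Ackr2*, so the share is not one of inflammatory chemokines alone. Of the called genes with a promoter in that table, *Cxcl1*, *Ccr1* and *Ccr3* held one and *Ccl12*, *Ccr2* and *Cxcr4* did not. *Cxcl5*, *Ccl2*, *Ccl24* and *Ccl11*, which rose, had no promoter there and were not looked up. The match is in capitals and lies 71 bases before the start in *Cxcl1* (chr5:90891166-90891191, plus strand), 74 before it in *Ccr1* (chr9:123968749-123968774, minus strand) and 179 before it in *Ccr3* (chr9:124021784-124021809, plus strand). The motif nearly reads the same on both strands, so neighbouring matches overlap.
Cxcl1: tgtactccGGGAATTTCCctggcccg
Ccr1: ttagaaggGGGAGGCTCCtcactgac
Ccr3: ccttaagaGGAAATTCCCacattgtt

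In the ovary, where 29 of the 31 genes passed the filter on low values, no chemokine or receptor was called by limma. Across all 18504 genes tested, 0.73% were called higher and 0.227% lower. At an unadjusted p below 0.05 there were 10, all higher, beside 16.8% of all genes in either direction, and DESeq2 on reads recovered from the values called 4 higher (*Cxcl10*, *Ccl22*, *Ccl12* and *Ccl9*), beside 1.55% of all genes, while edgeR on the same reads called 0, beside 0.735%. Over the 17 chemokines tested the median log2 fold change was 0.88, with 15 above 0, and over the 12 receptors 0.17, beside -0.0042 over all genes, 49.3% of which were above 0. Of the 29, 9 had every L2-fKO library above every wild-type library, beside 13.2% of all genes, and none had the reverse, beside 12.0%. An exact permutation test of 3 against 3 cannot go below 0.1, which each of these 9 reached.

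*Cxcl12* passed the adjusted p in the ovary but not the fold limit. It had normalized counts of 4412, 4501 and 4611 in wild type and 5924, 6083 and 5825 in L2-fKO, tight groups with means of 4508 ± 99.8 and 5944 ± 130.3 (SD, n = 3 each), and a log2 fold change of 0.40 ± 0.06 (limma adjusted p = 0.0249), where 1.58% of all genes passed an adjusted p of 0.05. *Cxcl10* had 51.1, 54.3 and 39.5 against 199, 217 and 92.2, the lowest of L2-fKO in ovary 3. Its log2 fold change was 1.71 ± 0.34 (limma adjusted p = 0.0645), and without L2-fKO ovary 3 it was called (2.09, limma adjusted p = 0.0252). *Ccl22* had 3.65, 2.51 and 15.6 against 43.8, 25.7 and 47.8, from 3 to 17 reads per library in wild type and 25 to 49 in L2-fKO (2.58 ± 0.61, limma adjusted p = 0.0928). Without wild-type ovary 3, the highest of its group, the log2 fold change of *Ccl22* was 3.26.

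Of the CCR2 ligands, *Ccl12* and *Ccl7* did not overlap between the ovary groups and *Ccl2* did. *Ccl12* had 9.73, 10.9 and 14.7 in wild type and 39.3, 61.7 and 21.6 in L2-fKO, with no overlap (1.61 ± 0.42, limma adjusted p = 0.12). *Ccl7*, left out by the filter on low values, had 4.87, 3.34 and 1.84 against 25.0, 30.8 and 9.11, and in a fit of every gene of the table its log2 fold change was 2.29 ± 0.55 (limma adjusted p = 0.0966). *Ccl2* overlapped, with 17.0, 18.4 and 7.34 against 54.6, 37.0 and 10.2. In all 3 genes L2-fKO ovary 3 was the lowest L2-fKO library.

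The CCR1 ligands *Ccl9* and *Ccl6* had fold changes above 0 in the ovary. *Ccl9* had 31.6, 35.9 and 27.5 against 72.4, 70.9 and 51.2 (1.00 ± 0.25, limma adjusted p = 0.107), and *Ccl6* 38.9, 44.3 and 49.5 against 106, 113 and 45.6 (0.88 ± 0.36, limma adjusted p = 0.284). *Cxcl1*, *Cx3cl1* and *Cxcl16* did not overlap between the groups, at log2 fold changes of 0.94, 0.44 and 0.33. The eotaxins that rose in the spleen showed no such difference: *Ccl24* had 4.18 to 18.4 in wild type and 3.08 to 17.9 in L2-fKO ovaries, and *Ccl11* 15.8 to 26.6 and 15.9 to 21.5. Of the receptors, *Cxcr4* alone did not overlap, with 253, 258 and 252 against 303, 352 and 320.0 (0.35 ± 0.12, limma adjusted p = 0.208), and the 4 CC receptors tested had log2 fold changes from -0.38 (*Ccr2*) to 0.38 (*Ccr1*).

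**Figure D4:**
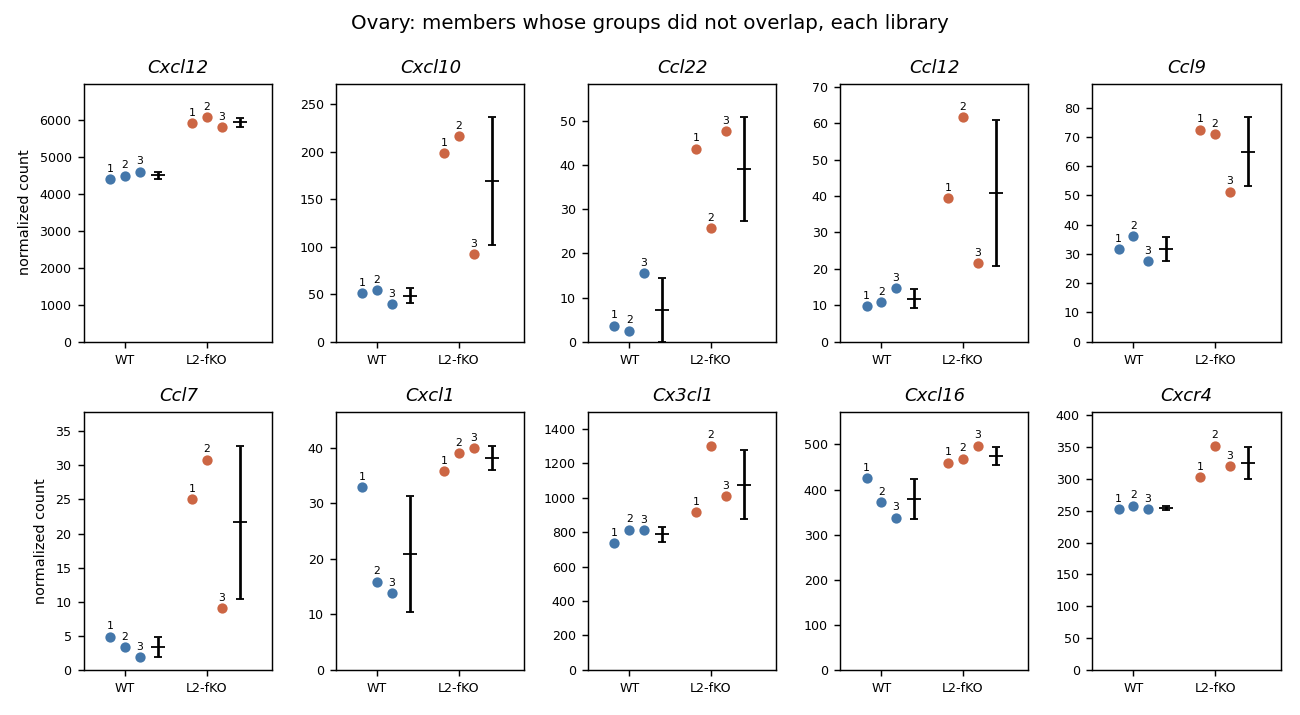
Normalized counts (y axis, from 0, with its own scale in each panel) of the 9 tested genes and of Ccl7 whose wild-type and L2-fKO ovaries did not overlap; each dot is 1 of 3 libraries per group, numbered as in the text, and the black mark is the mean with 1 SD. L2-fKO ovary 3 is the lowest of its group for Cxcl10, Ccl12, Ccl9 and Ccl7, and both Cxcl12 groups spread little beside the distance between them.

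Several marker lists differed between the ovary groups. Monocyte and macrophage markers summed to 2136 to 2299 in wild type and 2605 to 3438 in L2-fKO, and endothelial markers to 12145 to 13000 and 14718 to 18058, both without overlap and with all 9 and all 7 fold changes above 0, none of them called by limma. Mast cell, basophil and eosinophil markers summed to 862 to 1416 in wild type and 413 to 827 in L2-fKO, again without overlap, with all 6 fold changes below 0 and none called. Dendritic cell markers summed to 3010 to 3418 and 3363 to 4289. Neutrophil markers summed to 57.7 to 299 and 52.8 to 112, and granulosa cell markers to 62702 to 75977 and 29830 to 67051. L2-fKO ovary 3 had the lowest sum of monocyte and macrophage markers and of endothelial markers among the L2-fKO ovaries. The part of these markers in the ovary values was not tested. Per length, *Cxcl12* (14.9 ± 0.64 RPKM, SD) led the chemokines taken by the naming rule in wild-type ovary. *Cxcl14* (7.35 ± 3.75) and *Cx3cl1* (5.42 ± 0.40) followed, these last 2 within their spread. *Ackr3* (10.2 ± 0.16) led the receptors before *Cxcr4* (3.81 ± 0.09).

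For 3 genes the effect of genotype differed between the tissues. The difference was tested in a single edgeR fit of all 14 libraries on reads, for 27 of the chemokines and receptors, and a call again needs an adjusted p below 0.05 and a difference above 1. *Ccl6*, *Cxcr4* and *Ccl9* were called, each with the lower effect in the spleen, beside 2.34% of 15534 genes called in that direction and 1.59% in the other. The spleen effect minus the ovary effect was -1.76 ± 0.36 for *Ccl6* (edgeR adjusted p = 0.0104), -1.37 ± 0.33 for *Cxcr4* (adjusted p = 0.022) and -1.84 ± 0.50 for *Ccl9* (adjusted p = 0.0407). In each, the fold change was below 0 in the spleen and above 0 in the ovary. The call on *Ccl6* held when any 1 library was left out. That on *Ccl9* was lost in 9 of 14 such fits (on leaving out wild-type spleen 1, wild-type spleen 2, L2-fKO spleen 1 or any ovary) and that on *Cxcr4* in 4 of 14 (without any wild-type ovary or L2-fKO ovary 2). One L2-fKO animal was sampled in both tissues, and with its spleen (L2-fKO spleen 3) left out 4 genes were called, *Ccr1* joining these 3. For *Ccl11* (1.38, adjusted p = 0.0616), *Ccr1* (-1.75, 0.0662), *Ccl22* (-1.89, 0.0676), *Cxcl1* (1.44, 0.167), *Ccr2* (-1.35, 0.195), *Ccl12* (1.62, 0.226) and *Ccl2* (0.78, 0.621) a difference between the tissues did not pass edgeR's test. Of these, *Ccl22* was called on leaving out wild-type ovary 3 (-3.15, edgeR adjusted p = 0.00747) or wild-type spleen 3 (-2.07, adjusted p = 0.0281). *Ccl24* was too scarce in the ovary for this fit.

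**Figure D5:**
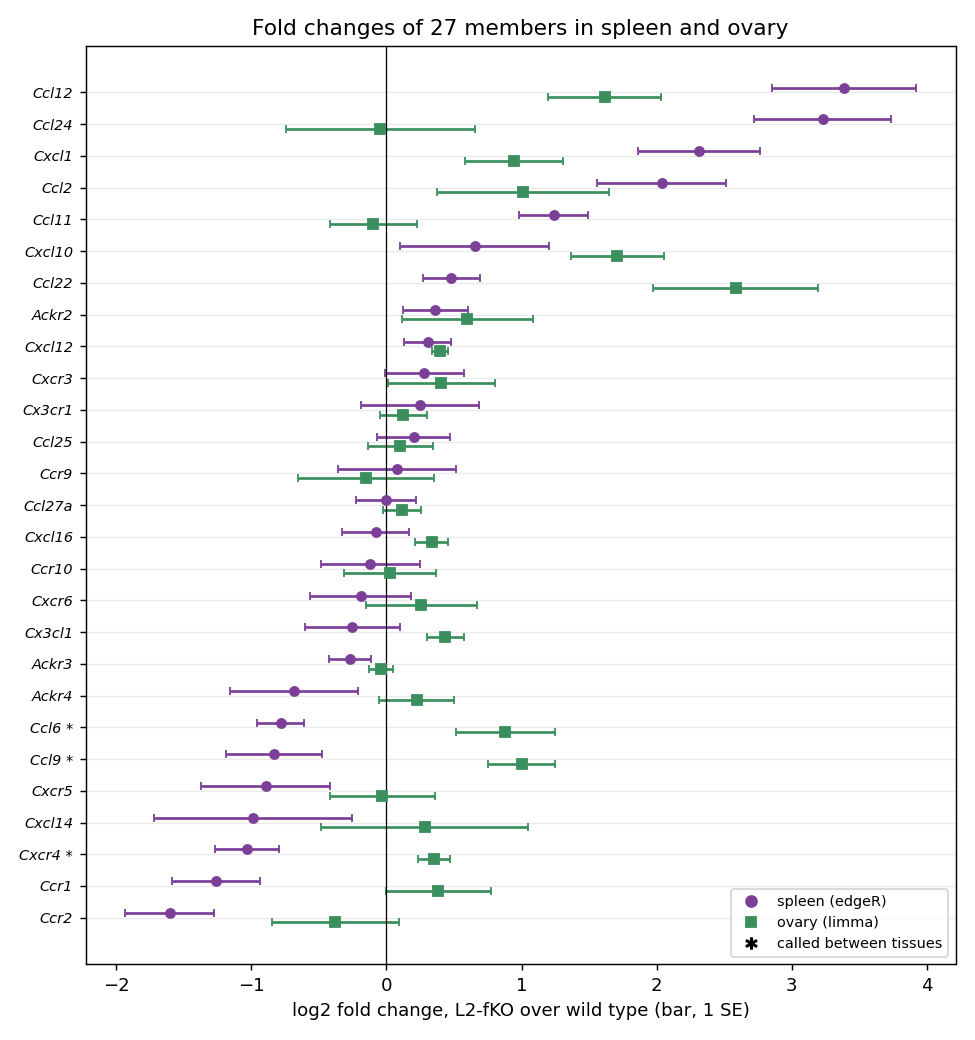
Log2 fold change of L2-fKO over wild type (x axis, bars 1 SE) for the 27 genes tested in both spleen (circles, edgeR, 4 against 4) and ovary (squares, limma on log2 of the value plus 1, 3 against 3), ordered by the spleen value. Asterisks mark Ccl6, Ccl9 and Cxcr4, whose circles lie below 0 and squares above 0.

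Genes that act beside chemokines and their receptors were taken from lists. Of 8 chemokines, receptors and relatives under other names, 2 fell in the spleen, the platelet chemokines *Pf4* (3984 to 10102 in wild type and 95.6 to 192 in L2-fKO; log2 -5.64 ± 0.36, edgeR adjusted p = 1.86e-05) and *Ppbp* (10085 to 19950 and 119 to 331; -6.06 ± 0.36, adjusted p = 1.49e-05), and none rose. All 8 megakaryocyte and platelet markers fell beside them, with a sum of 11240 to 22489 in wild type and 917 to 1144 in L2-fKO, and their part in the 2 values was not tested. Of 26 genes for G proteins, kinases, arrestins and effectors downstream of the receptors, none was called in either tissue. The medians were -0.14 in the spleen and 0.09 in the ovary on the log2 scale. Under the fold limit in the spleen, *Arrb1* (0.83, edgeR adjusted p = 0.0429) and *Gnb1* (0.35, adjusted p = 0.0488) were higher and *Arrb2* (-0.63, adjusted p = 0.0207) lower. An adjusted p of 0.05 was passed by 13.4% of all genes. Among 9 RGS proteins, which switch off the G protein signal, *Rgs1* rose (1.41 ± 0.33, adjusted p = 0.021) and *Rgs18*, known from platelets, fell (-3.06 ± 0.17, adjusted p = 1.1e-05). *Rgs10* was lower under the fold limit (-0.96, edgeR adjusted p = 0.00374). Among 11 proteases and sulfotransferases that modify chemokines or their receptors, the neutrophil enzymes *Elane*, *Mmp8* and *Mmp9* fell, with log2 fold changes of -2.54, -1.99 and -1.36, and the mast cell chymase *Cma1* rose by 2.34 on the log2 scale. None of 10 genes of lymphotoxin and non-canonical NF-kappaB induction, which set up the expression of homeostatic chemokines, was called in the spleen (median -0.13). Under the fold limit, *Ltbr* (log2 0.64, edgeR adjusted p = 0.0112) and *Tnfrsf1a* (0.52, adjusted p = 0.0223) were higher there. No gene of these lists was called in the ovary.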

How the data were processed

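Total RNA of 8 spleens and 6 ovaries was sequenced as poly(A) libraries. Per the labels and the study's methods, the authors used Trimmomatic 0.36 for trimming, STAR 2.5.2b for mapping to GRCm38 and counted reads by gene with featureCounts of Subread 1.5.2. The spleen counts were deposited as whole reads for 49315 genes. For the ovary the deposited values are a signal, counts that the authors divided by a size factor for each library with DESeq2; its processing is not given separately in the sources used here. These values came out as whole reads within 0.001 for 100.0% of values. Fold changes and p-values from the authors' DESeq2 comparisons, and 8 normalized per-sample columns of the spleen comparison, were not used.

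Spleen counts were tested with edgeR 4.0.16 (quasi-likelihood, TMM) for each gene whose count reached 10 in 4 libraries or more. Ovary values were tested with limma 3.58.1 (trend) on log2(value + 1) where 3 libraries or more reached a value of 10, which understates changes of low genes. The difference between tissues was tested with edgeR on reads, for genes with at least 10 in 3 or more libraries of each tissue. P-values were adjusted by Benjamini-Hochberg over all genes tested. DESeq2 1.42.0, other size factors, filters, pseudocounts, sex, replicate number and single libraries left out were tried as alternatives. Fits were tested on simulated data. R 4.3.3, Python 3.11.15, scipy 1.17.1 and matplotlib 3.10.9 were used.

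Libraries of a group were separate animals and differed by more than counting error (chi-square per degree of freedom 7.86 to 236). The wild-type spleen labelled 3 a second time is numbered 4. Normalized counts of the spleen are counts over library sizes scaled by TMM, brought to the mean of these sizes. Those of the ovary are the deposited values, counts over DESeq2 size factors. For RPKM, library sizes were scaled by TMM in the spleen and were plain totals of recovered reads in the ovary. Of the 2 receptors left out, 1 was excluded by the rule and 1 is not reported here. Chemokines, receptors, their roles and all lists were chosen with earlier results of these data known. Values by library are given for each gene past an adjusted p of 0.05 or, for roles with none, for those with the highest levels. Of the lists, called genes are named. In the lists of genes that act beside chemokines and in that of monocytes and macrophages, those past the adjusted p alone in the spleen are named too.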

Additional observations from a re-analysis of the deposited data

Results flagged for a closer look

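In 40 groups of 4 spleens (20 genes, wild type and L2-fKO), the gap between an extreme library and its nearest neighbour was divided by the range of the group and compared with Dixon's 95% critical value. By chance about 1 in 20 independent groups passes it, and 7 of 40 did. The 20 genes were chosen with earlier results of these data known and were measured in the same libraries. The groups are therefore not independent, and an excess over 1 in 20 was not tested. L2-fKO spleen 4 was the library in 6 of them, on the high side for *Ccl11* (0.901 of the range), *Ccl24* (0.851), *Cxcl10* (0.842), *Cxcl5* (0.872) and *Cxcl9* (0.841), and on the low side for *Ackr3* (0.874). Among the L2-fKO spleens this library also had the highest sums of monocyte and macrophage, T cell, B cell, NK cell, dendritic cell, stromal and endothelial markers. Its erythroid sum was the lowest of them. The part of these sums in the flagged values was not tested. Wild-type spleen 3 was low for *Ccl22* (0.917), with 144 normalized counts against 254 to 264.

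The effect of genotype differed between the tissues for *Ccl6* (-1.76 on the log2 scale, spleen minus ovary), *Cxcr4* (-1.37) and *Ccl9* (-1.84), by edgeR's test of the difference. *Ccl6* stayed called in all 16 alternatives tried for it, *Cxcr4* in 11 and *Ccl9* in 6.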

How the results depend on the processing

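The count of 6 chemokines called higher in the spleen was 6 or 7 under every alternative, DESeq2 included, except with at least 10 counts required in all 8 libraries, where *Ccl12*, *Ccl2* and *Cxcl1* were no longer tested and 3 were called. The count of 4 called lower, all receptors, was 3 or 4 under the other fits without a block and 5 with adjusted p as the only limit, which added the chemokine *Ccl6*. It ranged from 1 to 4 when single libraries were left out (4 without wild-type spleen 3, where *Cxcr5* took the place of *Ccr1*): 1 without wild-type spleen 2, wild-type spleen 4 or L2-fKO spleen 1, and 2 without L2-fKO spleen 2, 3 or 4. In the ovary the count of 0 called higher became 4 with DESeq2 on recovered reads, and 1 with adjusted p as the only limit, and it ranged from 0 to 1 when single libraries were left out (1 without L2-fKO ovary 3); over all genes DESeq2 called 286 higher and 121 lower there, against 135 and 42. The 3 calls between tissues ranged from 1 to 4 when single libraries were left out (1 without wild-type ovary 1 or 2 or L2-fKO ovary 2). With single libraries left out, the log2 fold changes of *Cxcl10* and *Ackr1*, neither called, ran from -0.32 to 0.94 and from -0.39 to 0.031, and both turned without L2-fKO spleen 4. Causes were not tested. With the shortest 3′UTR in place of the longest, 7 genes held the 7-mer (15.6%, beside 15.6% of all genes) and 25 the 5-mer (55.6%, beside 44.8%).

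Replicate numbers were not taken to pair the animals. The study describes the spleens as 4 pairs matched by age, but the labels tie no number to a pair and give the number 3 to 2 wild-type spleens. Libraries with the same number correlated, in their deviations from the group means, at -0.14, 0.09, 0.18 and -0.29 in the spleen and at 0.38, 0.21 and 0.07 in the ovary, where numbers 1 and 2 but not 3 correlated best with their own. With the replicate number as a block, 6 spleen genes were called higher and 2 lower (*Ccr2* and *Ccr3*, with *Ccr1* and *Cxcr4* lost), 2 ovary genes higher (*Ccl22* and *Cxcl10*) and 2 differed between tissues (*Ccl6* and *Ccl22*, with *Ccl9* and *Cxcr4* lost). Genes with under 10 reads in a group (*Cxcl1*, *Ccl12* and, in the ovary, *Ccl7*) have folds of low precision.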
